A study of Homo sapiens with 8 samples.

Results

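Cancer-testis genes are germline genes that tumours can switch on, and 5 of them on chromosome X were followed here: PAGE1, PAGE2B, XAGE1B, MAGEA9B and NXF2. They were chosen by symbol because the authors' deposited tables list them as changed, and they are 5 of the 1221 distinct genes listed in the 3 tables. Their fold changes are therefore a description of the genes chosen, no test is made on them here, and the p-values printed are the authors' own. Ribosomal RNA-depleted total RNA had been sequenced from K-562, an established human leukaemia cell line, in 8 libraries forming 4 groups of 2. The controls were parental wild-type cells with a negative sgRNA. The other groups were TASOR KO cells, TASOR KO cells expressing a FLAG-TASOR transgene, and parental wild-type cells expressing a FLAG-TASOR2 transgene. Per the labels' protocols, knockouts came from CRISPR/Cas9 plasmids and single sorted cells, and transgenes or an empty puromycin vector came by lentivirus. The clone behind each library is not stated in the sources used here. A clone and a genotype cannot be told apart, nor can a negative sgRNA and the FLAG-TASOR2 transgene, since the labels name no guide for the transgene cells.

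PAGE and XAGE genes encode small acidic proteins of the GAGE-related family, and MAGE-A genes encode proteins that bind RING-type ubiquitin ligases. NXF2 is a testis-expressed relative of NXF1, the main receptor for nuclear export of mRNA. Most of these genes sit on chromosome X in multi-copy families, are active in testicular germ cells, and are kept silent in most somatic tissues, in part by DNA methylation of their promoters. TASOR belongs to HUSH, the human silencing hub, which keeps LINE-1 elements and some genes silent through methylated histone H3. TASOR2 is its paralog.

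Only selected genes are in the deposited tables. Tested on the files, every entry changed by more than 1 log2 unit, had a log2 mean above 1 and had an unadjusted p below 0.05. They listed 268 genes for TASOR KO, 261 for FLAG-TASOR in the knockout and 884 for FLAG-TASOR2. No value per library is in them, so the spread between the 2 libraries of a group is seen only through an approximate standard error, and depth is unknown. In the authors' deposited tables TASOR was at -1.08 (log2 fold change, approximate SE 0.23) in the knockout, and TASOR2 at 2.26 (0.27) with FLAG-TASOR2. Of 14 erythroid markers of K-562, 0, 1 (HBE1) and 3 (HBA1, HBA2 and HBZ) were listed in these tables, all as higher. Over all genes tested 1.92%, at most 1.87% and 6.31% were listed, and nothing is read from marker counts this small. The level of the other markers cannot be read. Below, genes are said to have fallen or risen if their adjusted p in the deposited table was under 0.05, and are otherwise called listed as lower or higher.

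All 5 genes are protein-coding and lie at separate places on chromosome X (GENCODE 29, GRCh38). PAGE1 lies at 49687450 to 49695993 on the minus strand, with 6 exons in its longest coding transcript. XAGE1B lies at 52512077 to 52520803 on the minus strand (4 exons), and PAGE2B at 55075063 to 55078909 on the plus strand (5 exons). NXF2 lies on the long arm at 102247161 to 102326719 on the plus strand (23 exons), and MAGEA9B near its end at 149581653 to 149587453 on the minus strand (4 exons). All but PAGE1 have a close copy nearby. PAGE2, 10.1 kb from PAGE2B, encodes a protein 93.7% identical to it. XAGE1A lies 11.3 kb from XAGE1B, NXF2B 33.7 kb from NXF2, and MAGEA9 194 kb from MAGEA9B, and each of these pairs encodes proteins that are 100% identical.

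The copies limit what a count of reads can say. Annotated transcripts were cut into stretches of 75 bases, and the share found in any other gene was counted. For PAGE1 this was 0% of 591 stretches, for PAGE2B 40.4% of 505, for XAGE1B 76.3% of 1443, for MAGEA9B 81.5% of 1949 and for NXF2 99.3% of 2265. NXF2 had only 15 stretches of its own, and XAGE1A had 0 of 1101. Values of PAGE2B, XAGE1B, MAGEA9B and NXF2 may thus hold reads of their copies. How the counting divided such reads is not stated in the sources used here.

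**Figure D1:**
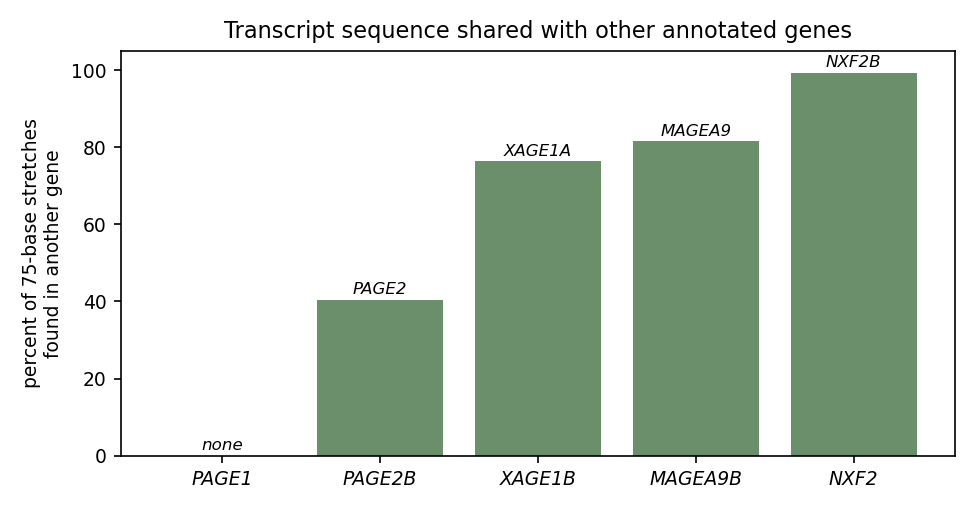
Bars give, for each gene, the percent of its 75-base transcript stretches that also occur in another annotated gene (y axis, 0 to 100), with the gene that shares most written above the bar. PAGE1 shares none, while NXF2 shares 99.3%, mostly with NXF2B.

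Promoter sequence was looked at because PAGE1 and PAGE2B had the lowest levels together. RefSeq (GRCh38.p14) held a start for 5 of the 5 genes. The 150 bases before the start are shown 5′ to 3′ for 4 of them. Capitals mark the 23-base stretch that PAGE1 and XAGE1B share, GCGCATGCGC in PAGE2B, the longest stretch of its window that equals its own reverse complement and a known binding sequence of NRF1, and the cyclic AMP response element TGACGTCA in MAGEA9B.
PAGE1 (chrX:49695985-49696134, minus strand): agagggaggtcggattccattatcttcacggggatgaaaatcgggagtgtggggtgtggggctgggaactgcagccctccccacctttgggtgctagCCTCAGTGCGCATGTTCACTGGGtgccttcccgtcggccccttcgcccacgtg
XAGE1B (chrX:52517013-52517162, minus strand): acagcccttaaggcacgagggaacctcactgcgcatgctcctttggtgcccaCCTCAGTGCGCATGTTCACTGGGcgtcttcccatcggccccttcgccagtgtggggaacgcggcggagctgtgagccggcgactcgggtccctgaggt
PAGE2B (chrX:55074880-55075029, plus strand): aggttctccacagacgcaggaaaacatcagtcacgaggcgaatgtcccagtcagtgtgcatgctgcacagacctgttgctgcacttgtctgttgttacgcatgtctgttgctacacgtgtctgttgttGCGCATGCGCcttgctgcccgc
MAGEA9B (chrX:149587460-149587609, minus strand): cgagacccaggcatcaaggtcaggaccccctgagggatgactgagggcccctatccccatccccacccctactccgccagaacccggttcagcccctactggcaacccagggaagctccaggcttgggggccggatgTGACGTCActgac

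The shared stretch ends 31 bases before the PAGE1 start and 76 bases before the XAGE1B start that was used. Searched on both strands in the 250 bases before each of 35116 annotated starts, it was found at 16 (0.0456%), all of 13 genes of the GAGE, PAGE and XAGE families. It contains the palindrome TGCGCA, which 6.89% of all such windows hold. PAGE1 has TGCGCA at 1 place in its window, XAGE1B at 2 and PAGE2B at 1, where it overlaps GCGCATGCGC by all but its first base. GCGCATGCGC was in 1.03% of windows and TGACGTCA in 1.65%. The windows of NXF2 and MAGEA9B hold no TGCGCA. The windows hold 9 CG pairs for PAGE1, 11 for PAGE2B, 14 for XAGE1B, 7 for MAGEA9B and 8 for NXF2, beside a median of 11 over all windows, so they lie on either side of it. The windows of XAGE1B and XAGE1A are identical over 250 of 250 bases, as are those of MAGEA9B and MAGEA9, whereas PAGE2B and PAGE2 share runs of at most 55. These matches describe letters only. No binding or methylation was measured in these libraries.

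PAGE1 and PAGE2B had similar, very low values in wild-type cells expressing FLAG-TASOR2. PAGE1 fell by 6.87 on the log2 scale (approximate SE 0.48, 95% interval -8.05 to -5.68) in the authors' deposited table, with a deposited p of 7.57e-06 and adjusted p of 0.0353. It was the second gene of 884 by p and the tenth lowest by fold change. PAGE2B had a log2 fold change of -6.51 (0.69, -8.19 to -4.82) in the authors' deposited table, next to PAGE1 in the order of fold changes, with an adjusted p of 0.106. The intervals of these genes overlap widely. In such bulk libraries fewer cells with a transcript and less of it in each cell cannot be told apart. Both genes are unlisted for TASOR KO and for FLAG-TASOR in the knockout, which means that they missed at least 1 listing criterion there and not that they stayed level.

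MAGEA9B was also listed as lower with FLAG-TASOR2, by a smaller amount. Its log2 fold change was -2.22 (approximate SE 0.35, 95% interval -3.06 to -1.37) in the authors' deposited table, with an adjusted p of 0.139. That is a 4.64-fold lower level. The whole interval lies above those of PAGE1 and PAGE2B, but the difference between the genes was not tested. With 3 of 5 genes lower and 1 higher, 4 were listed in this table, where 6.31% of 14001 genes tested were listed, 59.5% of those listed were lower and 0.0357% of those tested had an adjusted p below 0.05. The genes were chosen from these tables, so nothing is read from that count.

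XAGE1B was the one gene listed in both knockout groups and not with FLAG-TASOR2. In TASOR KO its log2 fold change was -1.92 (approximate SE 0.52, 95% interval -3.22 to -0.61) in the authors' deposited table, with a p of 0.0125 and an adjusted p of 1.00. With FLAG-TASOR it was -1.08 (0.40, -2.08 to -0.08) in the authors' deposited table, at a p of 0.0384 and an adjusted p of 0.999, close to the listing limits. The 2 intervals overlap, both rest on the same controls, and the difference between them was not tested. XAGE1B was the only 1 of the 5 genes listed for TASOR KO, where 1.92% of 13992 genes tested were listed, 48.9% of those were lower and 0.00715% of genes tested had an adjusted p below 0.05. Its near-identical copy XAGE1A appears in the other table only: with FLAG-TASOR2 it was listed as higher, at 2.64 (0.72, adjusted p 0.248) in the authors' deposited table.

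NXF2 was listed in opposite directions in 2 comparisons with the same controls. With FLAG-TASOR in the knockout it was listed at -6.76 (approximate SE 1.83, 95% interval -11.38 to -2.14) in the authors' deposited table, the fifth lowest of 261 genes, with an adjusted p of 0.999. With FLAG-TASOR2 it was listed at 2.72 (1.03, 0.20 to 5.23) in the authors' deposited table, at a p of 0.0382 and an adjusted p of 0.376. The intervals do not overlap, but the difference itself was not tested. Among listed genes within 1 log2 unit of its mean expression, the median SE was 0.40 with FLAG-TASOR and 0.30 with FLAG-TASOR2. Of these 87 and 59 genes, 0 and 1 had a larger SE than NXF2. Whether 1 library of a group accounts for its values cannot be read. With FLAG-TASOR, 2 of the 5 genes were listed, both as lower, where at most 1.87% of at least 13957 genes tested were listed, 67.4% of those were lower and 0% had an adjusted p below 0.05.

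**Figure D2:**
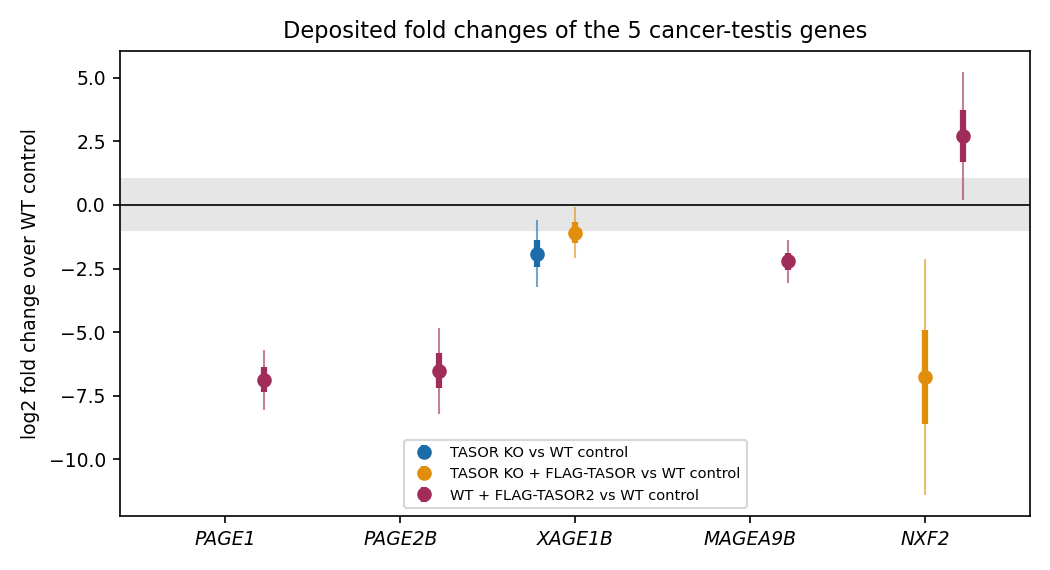
Points give the authors' deposited log2 fold change over the wild-type control (y axis) for each gene and comparison that lists it, with thick bars for the approximate SE and thin bars for the 95% interval; the grey band from -1 to 1 could not be listed. PAGE1 and PAGE2B sit at -6.87 and -6.51, and NXF2 has the widest bars, on opposite sides of 0.

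Group levels in CPM (counts scaled to library size) were derived from the deposited mean expression and fold change, taking the mean as that of 2 groups of equal weight. All 5 genes then had reads in the control cells, as the listing criteria require of any gene listed as lower. For PAGE2B, XAGE1B, MAGEA9B and NXF2 these may include reads of their copies. The derived control level was 29.3 CPM for PAGE1, 21.8 for PAGE2B and 42.8 for MAGEA9B. For XAGE1B it was 46.7 from the TASOR KO table and 38.9 from the FLAG-TASOR table, and for NXF2 it was 33.4 from the FLAG-TASOR table and 31.1 from the FLAG-TASOR2 table. The 2 control levels differed by 0.26 on the log2 scale for XAGE1B and by 0.10 for NXF2. These levels are per gene and not per length, so they rank no gene above another.

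With FLAG-TASOR2 the derived level was 0.250 CPM for PAGE1 and 0.239 for PAGE2B. MAGEA9B was at 9.22 CPM there, and NXF2 at 204. XAGE1B was at 12.4 CPM in TASOR KO cells and 18.4 with FLAG-TASOR. NXF2 was at 0.308 CPM with FLAG-TASOR, so its order of levels ran from FLAG-TASOR in the knockout through the controls to FLAG-TASOR2. Both NXF2 values carry the wide SE given above, and this order was not tested. Levels below 1 CPM depend on the small count that such fits add, and its size is not stated in the sources used here. With an assumed 0.1 CPM taken off, PAGE1 came to 0.150 and PAGE2B to 0.139. A gene without a symbol, ENSG00000238122, had a derived control level of 0.023 CPM in the TASOR KO comparison, below the assumed amount. A fold between the groups moves with the amount taken off. At 0.1 CPM it went for PAGE1 from 117 to 194, for PAGE2B from 91.1 to 156 and for NXF2 with FLAG-TASOR from 108 to 160. The degrees of freedom recovered from F and p do not mark any of these groups as having all counts at 0.

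**Figure D3:**
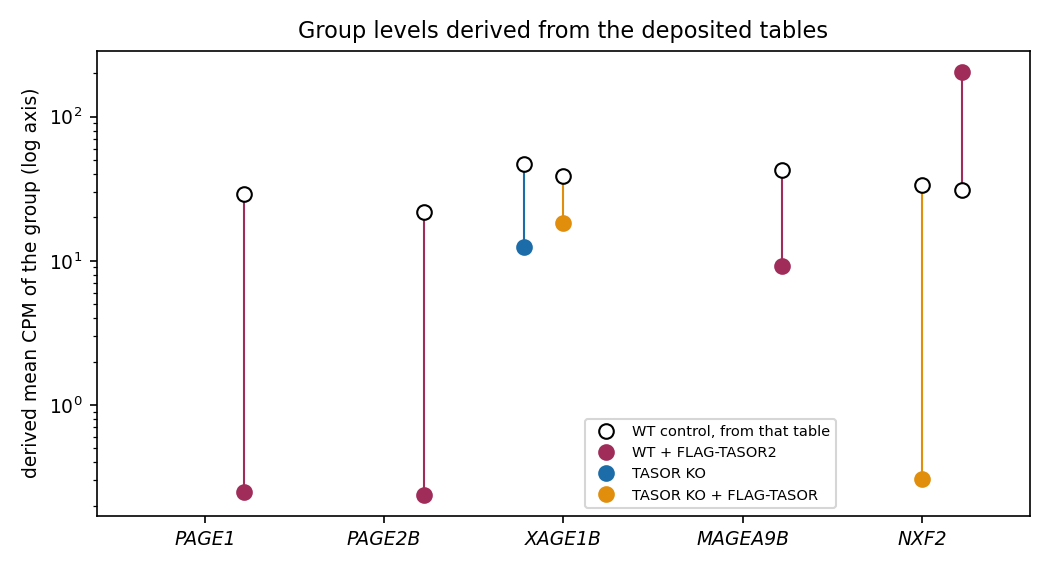
Derived mean CPM per group (y axis, log scale) for each gene, with open circles for the wild-type control as read from each table and filled circles for the altered group, joined by a line. Controls lie between 21.8 and 46.7 CPM, while PAGE1 and PAGE2B lie at 0.250 and 0.239 with FLAG-TASOR2 and NXF2 spans 0.308 to 204.

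The derivation was checked on every gene listed in 2 tables, since both should return the same controls. The control level differed by a median of 0.07 on the log2 scale over the 60 genes shared by the knockout tables, 0.13 over the 100 shared by TASOR KO and FLAG-TASOR2, and 0.13 over the 60 shared by FLAG-TASOR and FLAG-TASOR2. Only 1, 5 and 4 of these genes differed by more than 0.5. XAGE1B was among those that differed more than most, with 6 of its 60 genes differing further, and NXF2 had 36 of 60 differing further.

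**Figure D4:**
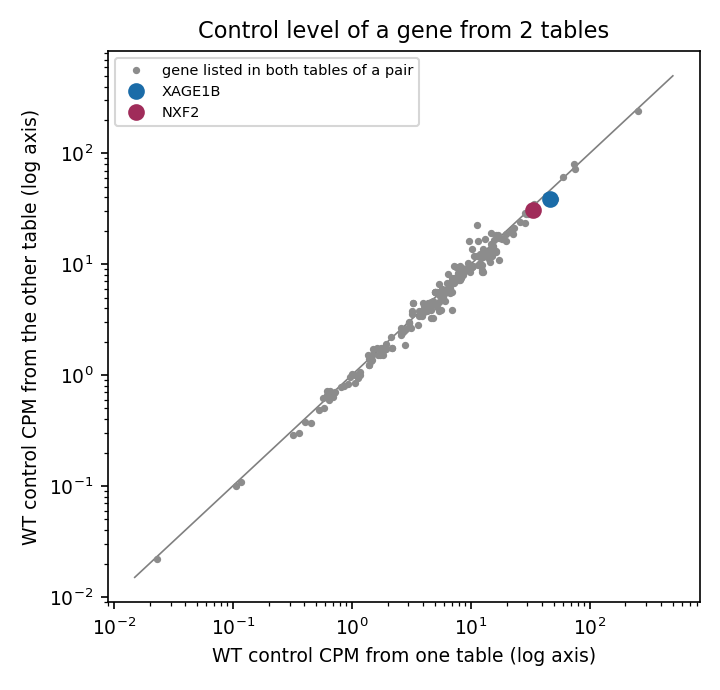
Each point is a gene listed in 2 tables, with its derived wild-type control CPM from one table (x axis, log scale) and from the other (y axis, log scale); the line marks equality. XAGE1B (46.7 and 38.9 CPM) and NXF2 (33.4 and 31.1 CPM) are in colour.

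Other X-linked cancer-testis genes were taken from a list of 109 that includes the 5, and how many of the 109 were tested is unknown. In TASOR KO 3 were listed (2.75% of the list, beside 1.92% of all genes tested), all lower: XAGE1B, VCX at -3.09 (approximate SE 0.54) and VCX3A at -3.43 (1.07) in the authors' deposited table. CT47A12, an X-linked cancer-testis gene outside the list that was picked after its values were seen, was listed as higher there, at 2.93 (0.65) in the authors' deposited table. With FLAG-TASOR 5 were listed (4.59%, beside 1.87%), all lower, where 67.4% of all listed genes were lower. Beside the chosen genes XAGE1B and NXF2 these were SSX3 at -1.96 (0.33), TEX11, a gene of meiosis, at -2.91 (0.88) and CT45A1 at -2.17 (0.77) in the authors' deposited table. Of the 75-base stretches, 55.4% for VCX, 75.6% for VCX3A and 78.9% for CT45A1 occur in other genes. VCX shares 413 of its 1108 with VCX3A, so the values of VCX and VCX3A may hold the same reads.

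With FLAG-TASOR2 9 were listed (8.26%, beside 6.31%), 6 lower and 3 higher, and 4 of the 9 are the genes chosen here. The other 5 were 3 lower and 2 higher, beside 59.5% lower over all listed genes and 83.8% over those of chromosome X. They are not 5 separate measurements, since all 1101 stretches of XAGE1A occur in XAGE1B and VCX shares 413 with VCX3A. Lower beside the members were VCX3A at -5.52 (1.02), VCX at -4.20 (0.88) and MAGEB17 at -2.27 (0.73) in the authors' deposited table. Higher beside NXF2 and XAGE1A was DDX53, an RNA helicase gene with 1 exon, at 5.55 (0.48, adjusted p 0.0591) in the authors' deposited table. PAGE1 was the only gene of the list past an adjusted p of 0.05. The direction has to be read against chromosome X as a whole, on which 71.4% of 21 listed genes were lower in TASOR KO, 96.7% of 30 with FLAG-TASOR and 83.8% of 80 with FLAG-TASOR2.

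In a list of 46 cancer-testis and germline genes of the autosomes, 3 were listed in TASOR KO (6.52%, beside 1.92% of all genes tested), 2 with FLAG-TASOR (4.35%, beside 1.87%) and 2 with FLAG-TASOR2 (4.35%, beside 6.31%). These 7 values, of 3 genes, were all higher, where 137 of 268, 85 of 261 and 358 of 884 listed genes were higher. All comparisons rest on the same controls, so repeated values of a gene are not separate measurements. TDRD5, which encodes a Tudor-domain protein of the germline, was in all 3 tables, at 4.87 (0.70), 3.41 (0.82) and 2.64 (0.77) in the authors' deposited tables. TDRD6, of the same protein family, was at 8.63 (1.19) in TASOR KO and 6.51 (0.90) with FLAG-TASOR2 in the authors' deposited tables. Its derived control level was 0.106 and 0.101 CPM, so the size of both values depends on the small count added. TSPYL6 was at 3.45 (0.36) in TASOR KO and 2.18 (0.83) with FLAG-TASOR in the authors' deposited tables. The 11 broadly expressed MAGE genes had 2 members listed in TASOR KO (18.2%, beside 1.92% of all genes tested). They were MAGEH1 at -2.15 (0.62) and NDN at 3.08 (1.22) in the authors' deposited table. NDN was the only one listed in the other tables, at 2.87 (1.12) with FLAG-TASOR and 3.53 (0.98) with FLAG-TASOR2 in the authors' deposited tables. That is 9.09% of the list in each, beside at most 1.87% and 6.31% of all genes tested, and the list is too short to read from. Of 17 mRNA export factors, the pathway of NXF2, 0 were listed in any table, and at the shares listed over all genes a list of this size may hold none, so nothing is read from it. Of 22 DNA methylation and HUSH factors, TASOR and TASOR2 themselves were the only ones listed, and nothing is read from the others being unlisted.

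Listed neighbours were sought within 1 Mb of each gene, and how many genes there were tested is unknown. Over all genes tested 1.92% were listed in TASOR KO, at most 1.87% with FLAG-TASOR and 6.31% with FLAG-TASOR2. Among all listed chromosome X genes, 71.4%, 96.7% and 83.8% were lower in these comparisons, so nothing is read from the direction of the neighbours. With FLAG-TASOR2, PAGE1 had 1 listed gene within 1 Mb, SYP, 487 kb away at -2.68 (0.61), and PAGE2B had 0. MAGEA9B had 3, all lower, the nearest being EOLA1 at 31.1 kb with -1.11 (0.39) and, on the other side, MTM1 at 981 kb with -1.45 (0.51) in the authors' deposited table. NXF2 had 3 higher and 1 lower there. The nearest was AC235565.2, a locus that shares 2189 of the 2265 NXF2 stretches, at 2.25 (0.79), and on the other side ARMCX3 at 619 kb with 1.05 (0.25) in the authors' deposited table. With FLAG-TASOR its nearest was ARMCX5 at 272 kb with -1.09 (0.35). XAGE1B had 0 listed neighbours in either knockout table. Where they were unlisted themselves, PAGE1 had MAGIX at 519 kb with 1.17 (0.33) in TASOR KO. PAGE2B had MAGEH1 at 373 kb in TASOR KO and USP51 at 406 kb with FLAG-TASOR, both lower.

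Genes with the most similar values were sought for XAGE1B and NXF2, each listed in 2 comparisons, among the 31 genes in exactly the same tables, by distance between log2 fold changes over the 2 comparisons. For XAGE1B these were USP51 (distance 0.47), TMEM67 (0.52) and CCDC80 (0.55). USP51, also on chromosome X, was at -1.58 (0.55) and -1.41 (0.53) in the authors' deposited tables. No gene came close to NXF2. The nearest, TP53I11, was 3.44 away, at -3.41 (0.98) with FLAG-TASOR and 1.96 (0.60) with FLAG-TASOR2 in the authors' deposited tables, a gene without a symbol in the tables was 4.65 away, and GLIS3 was 5.51 away.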

How the data were processed

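The tools named in the submitters' processing notes are STAR (2.7.8), Salmon, edgeR and DESeq2, with hg38 as the build, and no roles are given. The deposited columns, per the file headers, are log2 fold change over the controls, log2 mean CPM, F score, p-value and adjusted p-value. The authors' column names match an edgeR quasi-likelihood table. Each group has 2 libraries. The sources used here do not say whether they came from separate cultures, so the deposited p-values may measure technical spread. No model was refitted. The approximate SE was taken as |log2 fold change| / sqrt(F), and intervals use the degrees of freedom recovered from F and p (5.36, 5.34 and 6.01). The number of genes tested was recovered from the top gene's adjusted p over its p, or for FLAG-TASOR from the largest row number, a lower bound.

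Derivations (Python 3.11.15, SciPy 1.17.1) were tested on simulated data. Positions and transcripts are from GENCODE 29, and 257 of 268, 253 of 261 and 853 of 884 listed genes matched by identifier. The members and the 5 gene lists were chosen with earlier results of these data known. Named genes are the members, every listed gene of the lists, the nearest listed genes within 1 Mb and the 3 most similar genes. Near-identical copies were called at 90% protein identity.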

Additional observations from a re-analysis of the deposited data

How the results depend on the processing

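The counts of listed X-linked cancer-testis genes are small and move with the threshold. Among genes at or above the median expression of their table, 1 was listed in TASOR KO (1 lower), against 3, and 3 with FLAG-TASOR (3 lower), against 5. With FLAG-TASOR2 this left 3 lower, against 6. At an absolute log2 fold change of at least 2, FLAG-TASOR kept 3 genes (3 lower). Without genes that have a near-identical copy, FLAG-TASOR listed 2 (2 lower) and FLAG-TASOR2 listed 5, against 9. This cut leaves out PAGE2B, XAGE1B, MAGEA9B and NXF2. It keeps VCX and VCX3A, whose proteins are 89.3% identical, just under the cut of 90%. An adjusted p below 0.10 gave 2 genes with FLAG-TASOR2, PAGE1 and DDX53, against 1. The other 10 of 21 counts stayed within 1.5 times. Intervals with 1 degree of freedom fewer were computed too, but they say nothing about stability, since only genes with an unadjusted p below 0.05 are listed. With the assumed 0.1 CPM removed, 12 of 14 derived levels moved by less than the approximate SE of the log2 fold change. Those of PAGE1 and PAGE2B with FLAG-TASOR2 moved by more. NXF2 with FLAG-TASOR went from 0.308 to 0.208 CPM and is among the 12 because its SE is 1.83, so it is not thereby stable. No paired analysis was possible because the tables hold no value per library, and leaving out a replicate was not run for the same reason.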

Other observations

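CT47A12 is a further X-linked cancer-testis gene. It is outside the gene lists and was picked once its values had been seen. It was listed in opposite directions in 2 comparisons. Its log2 fold change in the authors' deposited table for TASOR KO was 2.93 (SE about 0.65) at an adjusted p of 1.00. With FLAG-TASOR2 the authors' deposited table gave -3.48 (SE about 0.71) at an adjusted p of 0.199. Its derived control level was 11.9 CPM from either table, against 90.6 CPM in TASOR KO cells and 1.06 CPM with FLAG-TASOR2. The difference between the comparisons was not tested, and neither value passed an adjusted p of 0.05. Among listed genes within 1 log2 unit of its mean expression, the median SE was 0.33 in TASOR KO and 0.58 with FLAG-TASOR2. Of these genes, 1 of 23 and 129 of 435 had a larger SE. Its 75-base stretches were not compared with other genes, so whether its values hold reads of other genes is unknown.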
